A study of Mus musculus with 20 samples.

Results

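The 46 genes described here drive or mark cell division, from the D-type cyclins of G1 to the proteins that split the cytoplasm at the end of mitosis. They were taken by gene symbol from a table of 25308 entries counted in the apex of the mouse heart, and all 46 symbols were found. Kif11, a spindle motor, is listed under 2 gene identifiers, so that the 46 genes fill 47 entries. All 47 entries passed the filter on low counts. By role, 7 genes act in G1 or at the G1/S transition, 12 in DNA synthesis and 27 in mitosis.

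The mice model cardiac AL amyloidosis, in which a misfolded immunoglobulin light chain deposits as fibrils in the heart. The 9 AL and 4 LS mice are λS-DH animals, which carry a human λ light chain in place of the mouse Ig kappa J segments, under an Ig heavy chain promoter, on the DH-LMP2A background. That background lacks Ig heavy chains and has more plasma cells, and the 7 Ctrl mice carry it without the human light chain. AL mice had been induced with an intravenous injection of recombinant variable domain, as fibril seeds or in soluble form, and had amyloid deposits; LS mice had not been induced. Per the study's methods and text, Ctrl mice were matched to AL mice by age. The age of the single mice, and their sex, inducer and time after injection, are not given in the sources used here. The labels give 2 batches, which were separate sequencing runs. The first batch held 15 mice (7 AL, 4 LS and 4 Ctrl) and the second 5 (AL8, AL9 and Ctrl5 to Ctrl7), so no LS mouse was in the second.

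A cell that divides passes through G1, copies its DNA in S phase and separates the copies in mitosis. D-type cyclins and E2F factors open S phase, MCM proteins load at origins as the replicative helicase, and cyclins A and B with Cdk1 carry the cell into mitosis. Many mitotic genes are held silent in resting cells by the DREAM complex and are switched on late in the cycle by MYBL2 and FOXM1. Most cardiomyocytes of the adult mouse no longer divide, so that transcripts of mitotic genes are rare in the heart, and those found there can come from fibroblasts, endothelial cells or leukocytes as well as from cardiomyocytes.

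A pair of elements is known to control late cell cycle genes, the CHR (TTTGAA or TTCGAA) and the CCAAT box (CCAAT), while E2F sites (searched as TTTCCCGC, TTTCGCGC, TTTGGCGC and TTTGCCGC) are known from genes of DNA synthesis. RefSeq promoters of build GRCm38.p6, each a window from upstream of the gene start to 50 bases after it, were held for 37 of the 46 genes and searched on both strands. A CHR was found in 19 of 23 mitosis promoters (82.6%), 2 of 11 DNA synthesis promoters (18.2%) and 19.4% of all 27025 promoters. CHR and CCAAT box stood together in 18 of the 23 mitosis promoters (78.3%) and in 7.7% of all promoters. An E2F site was found in 5 of 11 DNA synthesis promoters (45.5%), 1 of 23 mitosis promoters (4.35%) and 2.32% of all promoters. The CCAAT box alone was in 20 of 23 mitosis promoters (87%), 8 of 11 DNA synthesis promoters (72.7%) and 37.9% of all promoters. These are matches of letters and not measured binding. The promoters below belong to Mki67, a mitosis gene that was higher in AL than in LS mice, to Cenpf, which was lower, to Birc5, which rose most, and to Mcm6, a replication gene that was not called; capitals mark the matches to the motifs above.
Mki67 (chr7:135716330-135716629, minus strand): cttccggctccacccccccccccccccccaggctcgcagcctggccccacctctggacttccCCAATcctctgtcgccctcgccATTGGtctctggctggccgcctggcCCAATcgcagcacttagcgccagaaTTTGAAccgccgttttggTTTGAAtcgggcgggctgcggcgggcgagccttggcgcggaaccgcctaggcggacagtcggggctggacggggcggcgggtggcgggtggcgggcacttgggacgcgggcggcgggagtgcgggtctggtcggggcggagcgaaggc
Cenpf (chr1:189688037-189688336, minus strand): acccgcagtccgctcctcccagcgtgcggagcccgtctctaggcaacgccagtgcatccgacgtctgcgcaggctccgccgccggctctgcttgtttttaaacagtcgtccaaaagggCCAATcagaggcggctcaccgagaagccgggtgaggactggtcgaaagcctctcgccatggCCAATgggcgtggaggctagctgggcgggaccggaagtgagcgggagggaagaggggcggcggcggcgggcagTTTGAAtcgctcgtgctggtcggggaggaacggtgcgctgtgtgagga
Birc5 (chr11:117848987-117849286, plus strand): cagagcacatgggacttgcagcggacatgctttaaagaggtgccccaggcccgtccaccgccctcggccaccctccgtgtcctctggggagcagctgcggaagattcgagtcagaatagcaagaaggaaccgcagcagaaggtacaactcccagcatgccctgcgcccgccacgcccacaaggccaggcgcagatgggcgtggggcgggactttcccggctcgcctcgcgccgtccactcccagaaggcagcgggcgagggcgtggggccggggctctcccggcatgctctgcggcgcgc
Mcm6 (chr1:128359656-128359955, minus strand): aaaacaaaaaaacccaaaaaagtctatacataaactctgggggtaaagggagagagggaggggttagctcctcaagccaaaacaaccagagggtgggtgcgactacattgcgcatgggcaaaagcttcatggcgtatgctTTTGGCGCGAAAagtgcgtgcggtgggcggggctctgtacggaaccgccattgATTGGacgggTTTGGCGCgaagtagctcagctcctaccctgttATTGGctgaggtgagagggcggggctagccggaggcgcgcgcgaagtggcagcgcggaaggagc
Mki67 held 2 CHR and 3 CCAAT matches, and Cenpf, which moved the other way, held 1 CHR and 2 CCAAT matches. None of the motifs was found in the Birc5 window, which says only that these letters are not in it.

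The total estimated count per mouse was between 43993277 and 62668146 in the first batch and between 7867642 and 11794615 in the second. Levels are given as CPM, counts scaled to a common library size, after TMM normalisation, which rescales library sizes between mice. A count of 3 corresponded to at most 0.0682 CPM in the first batch and to between 0.254 and 0.381 CPM in the second, so that the rarest mitotic genes rested on few reads there; Ccnb2, for example, had an estimated count of 2 in Ctrl7 and 10 in AL9. In bulk tissue, fewer cells of a type and less RNA per cell cannot be told apart. Among the markers checked, all 8 cardiomyocyte genes were tested and 0 of 8 were called in any comparison, and their summed level lay between 48520 and 80270 CPM over the 20 mice. Of these genes, Myh6 and Pln were lower in AL mice at an FDR under 0.05, by too little to be called.

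Compared per length of exon, the members fell into levels far apart. In LS mice, Pcna, the sliding clamp of DNA polymerase, stood at 15.1 ± 0.638 CPM per kb (SD, n = 4), Ccnd2 at 14.5 ± 1.92 and Ccnd1 at 11.5 ± 2.26. Cenpf, a large kinetochore and nuclear matrix protein, came next at 4.27 ± 0.897 CPM per kb, above Ccnd3 at 4.12 ± 0.182, a step smaller than their spread. Mki67, the proliferation marker Ki-67, stood at 0.512 ± 0.0355, while Ccnb1, Birc5, Cenpe and Bub1 stood at 0.118, 0.112, 0.0818 and 0.0811. With the longest transcript in place of all exons the order turned, with Ccnd3 at 9.38 and Cenpf at 5.93 CPM per kb in LS mice.

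**Figure D1:**
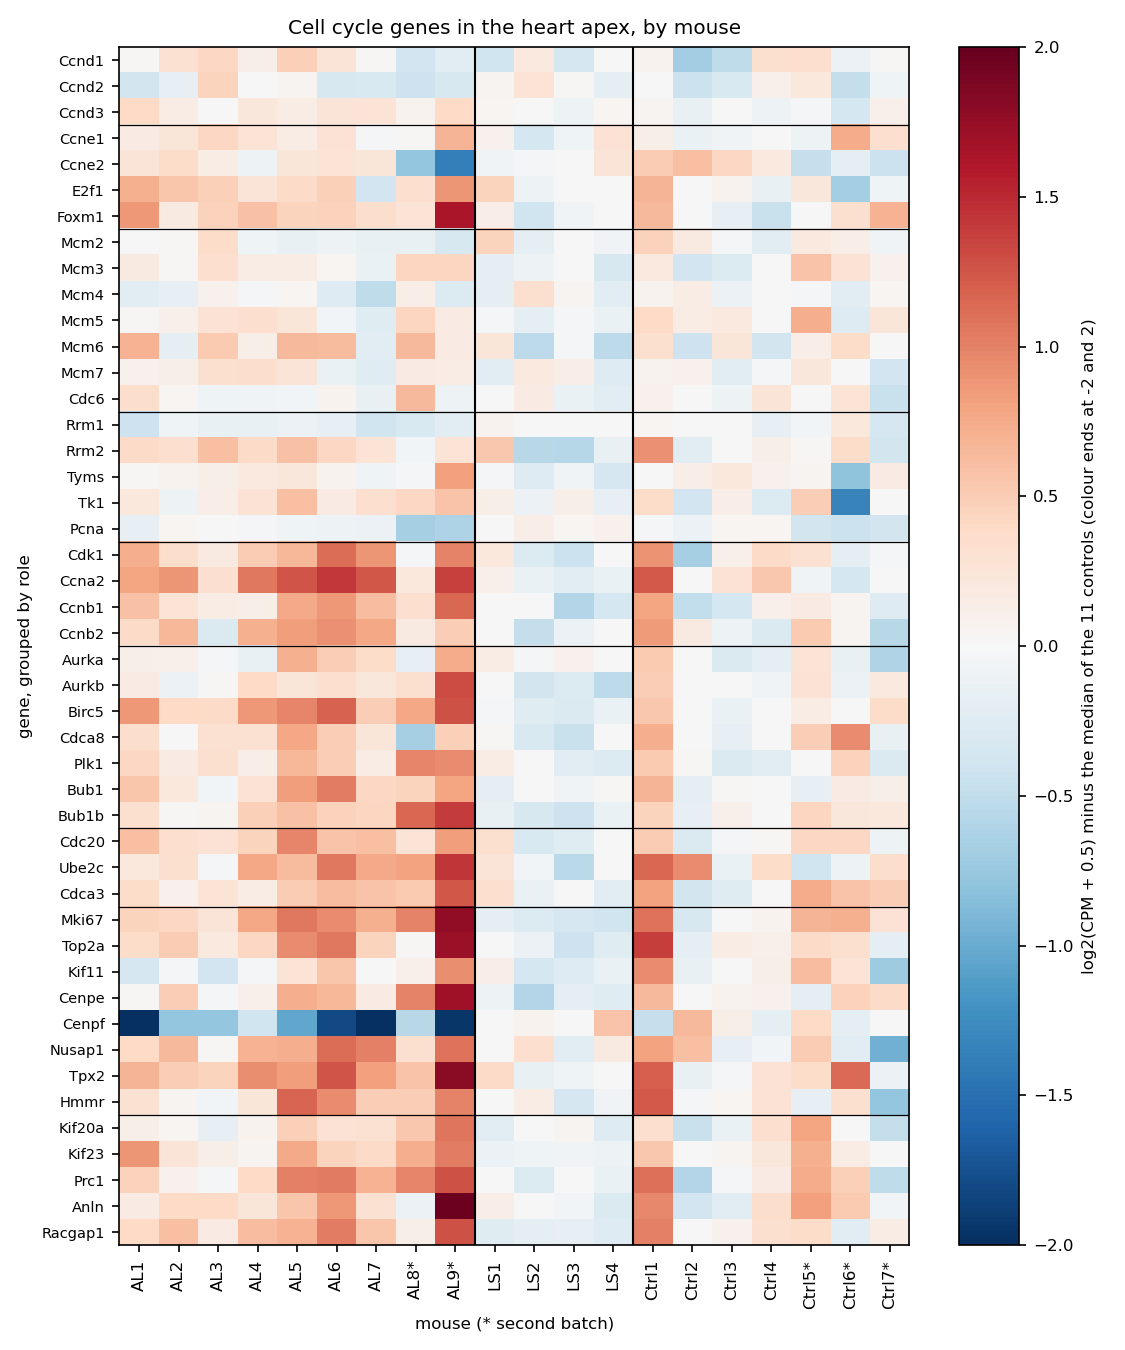
Each cell shows the log2(CPM + 0.5) of a gene in a mouse minus the median of the 11 control mice, with genes in rows by role and mice in columns by group; stars mark the second batch and colours end at -2 and 2. Most rows of the mitosis roles are red in AL mice and in Ctrl1, the Cenpf row is blue in AL mice, and the DNA synthesis rows are pale.

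AL mice against LS mice compare induced mice with deposits and mice of the same genotype that were not induced. Age matching is stated for Ctrl mice only, so age cannot be told apart from induction here. The second batch held no LS mouse. An entry was called when its Benjamini-Hochberg FDR over the 14477 tested genes was under 0.05 and its log2 fold change at least 0.58 in size, in edgeR's quasi-likelihood test with the batch in the model. Of the 47 entries, 15 were called higher in AL mice, beside 5.86% of all tested genes, and 1 was called lower, beside 3.03%. All 15 were mitosis genes. The median log2 fold change was 1.05 over 26 mitosis genes (without Kif11), 0.23 over 12 DNA synthesis genes and 0.01 over all tested genes. With ComBat-seq, an adjustment of the counts for batch of the kind named in the study's methods, in place of the batch term, 5 entries were called in place of 16. The count also rests on few LS mice: it was 7, 8 and 6 without LS2, LS3 and LS4 in turn, and between 11 and 19 with any other mouse left out. For these alternatives the share of all tested genes called was not counted.

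Cyclins A and B and their kinase were called in 4 of 4 genes. Ccna2 was called in all 32 alternative settings run, whereas Ccnb1, Ccnb2 and Cdk1 missed the FDR with ComBat-seq, without LS3 and without LS4, Ccnb2 also with no batch term, without LS1 or LS2 and without any 1 of AL4 to AL7, and Cdk1 without LS2 or AL6. Ccna2, the A-type cyclin of S and G2, stood at 2.36, 2.56, 1.57, 2.94, 3.43, 3.90, 3.43, 1.42 and 3.79 CPM in AL1 to AL9. In LS1 to LS4 it stood at 1.28, 1.01, 0.917 and 1.00 CPM. Every AL mouse was above every LS mouse, and the log2 fold change was 1.54 ± 0.32 (SE; FDR 0.00264). Ccnb1 and Ccnb2, the B-type cyclins, rose by log2 fold changes of 1.26 ± 0.40 (FDR 0.0277) and 1.35 ± 0.45 (FDR 0.0355). Cdk1 rose from 0.989 ± 0.292 CPM in LS (SD, n = 4) to 2.00 ± 0.632 in AL mice (n = 9), with 7 of 9 AL mice above every LS mouse (log2 fold change 1.06 ± 0.34, FDR 0.0308).

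Of the mitotic kinases, passenger complex and checkpoint genes, 4 of 7 were called higher. Birc5, the survivin subunit of the chromosomal passenger complex, had the largest change. It stood at 1.30, 0.809, 0.794, 1.31, 1.44, 1.73, 0.885, 1.19 and 1.89 CPM in AL1 to AL9 and at 0.472, 0.337, 0.306 and 0.404 in LS1 to LS4. The groups did not overlap, and the log2 fold change was 1.66 ± 0.29 (FDR 0.000904). Aurkb, the kinase of the same complex, rose by 1.13 ± 0.35 on the log2 scale (FDR 0.0249). The spindle checkpoint genes Bub1 and Bub1b rose by 1.14 ± 0.36 (FDR 0.0273) and 0.95 ± 0.22 (FDR 0.0059). Plk1, Cdca8 and Aurka had log2 fold changes of 1.10, 0.94 and 0.37 and were not called.

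Cdc20, the activator of the anaphase-promoting complex, was called among 3 genes of that role (log2 fold change 0.90 ± 0.28, FDR 0.0251). Ube2c and Cdca3 had values of 1.18 and 0.66 and missed the FDR. Among spindle, kinetochore and chromosome proteins, Mki67 stood at 5.60, 5.24, 5.01 and 4.76 CPM in LS1 to LS4 and at 7.78 to 14.0 in AL1 to AL7, with 13.3 in AL8 and 23.2 in AL9. No AL mouse was as low as any LS mouse (log2 fold change 1.11 ± 0.24, FDR 0.00393). Top2a, the topoisomerase that untangles sister chromatids, stood at 2.57 to 3.59 CPM in LS mice and at 3.67 to 13.1 in AL mice (0.98 ± 0.34, FDR 0.0442). Cenpe, a kinetochore motor, and Tpx2, which nucleates spindle microtubules, rose by 1.06 ± 0.32 (FDR 0.0237) and 1.05 ± 0.36 (FDR 0.0393). Of the 5 cytokinesis genes, Racgap1 and Kif23, partners in the centralspindlin complex, rose by 1.11 ± 0.27 (FDR 0.00724) and 0.76 ± 0.22 (FDR 0.0196).

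Cenpf moved the other way. It stood at 7.76, 33.9, 33.8, 44.2, 28.02, 16.3, 11.996, 39.5 and 14.7 CPM in AL1 to AL9. In LS1 to LS4 it stood at 58.3, 61.0, 57.9 and 86.6 CPM, and in Ctrl1 to Ctrl7 at 42.4, 91.2, 63.4, 51.7, 76.8, 51.7 and 58.0. No AL mouse reached an LS mouse, and 8 of 9 AL mice were below every control mouse, AL4 being above Ctrl1. The log2 fold change was -1.38 ± 0.34 against LS (FDR 0.00775) and -1.28 ± 0.30 against Ctrl mice (FDR 0.00486). Cenpf was also the mitosis gene of highest level in the controls, and the annotation places a processed pseudogene, Gm37239, inside it on the opposite strand. The Cenpf gene lies at 189640606 to 189688086 on chromosome 1 of GRCm38.

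Genes of DNA synthesis and of G1 were not called against LS. Mcm2, a subunit of the replicative helicase, stood at 4.82 to 8.05 CPM in AL and 5.39 to 8.53 in LS mice (log2 fold change -0.10 ± 0.15, FDR 0.665). Pcna stood at 21.6 to 35.7 CPM in AL and 34.5 to 38.0 in LS mice, with the 2 lowest values in the AL mice of the second batch (-0.16 ± 0.06, FDR 0.0522). Rrm1, the large subunit of ribonucleotide reductase, was lower by less than the fold threshold (-0.24 ± 0.08, FDR 0.0477). Ccnd1 and Ccnd2 had log2 fold changes of 0.28 ± 0.19 and -0.16 ± 0.15, and Ccnd3 of 0.23 ± 0.09 (FDR 0.0609). Foxm1, the factor that drives G2 genes, was above every LS mouse in 9 of 9 AL mice (0.80 ± 0.30) and missed the FDR, at 0.0565. E2f1, which switches on genes of S phase, stood at 0.598 to 2.15 CPM in AL and 0.841 to 1.44 in LS mice (0.49 ± 0.31), and the E-type cyclins Ccne1 and Ccne2 had values of 0.35 ± 0.26 and 0.14 ± 0.16.

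None of the helicase subunits was called. Mcm6 had the largest value of the 6, 0.56 ± 0.23 (FDR 0.0778), with 5 of 9 AL mice above every LS mouse. Mcm3, Mcm5 and Mcm7 had log2 fold changes of 0.27 ± 0.13, 0.26 ± 0.17 and 0.16 ± 0.14, and Mcm4 of -0.14 ± 0.13. Of the genes that supply nucleotides, Rrm2, the small subunit of ribonucleotide reductase, stood at 2.02 to 3.48 CPM in AL and 1.26 to 3.31 in LS mice (0.64 ± 0.26, FDR 0.084). Tyms, thymidylate synthase, and Tk1, thymidine kinase, had values of 0.43 ± 0.23 and 0.44 ± 0.40. In these genes the groups overlapped. In Mcm3 and Tk1, 8 of 9 AL mice were above every LS mouse, and in Mcm5 and Tyms 7 of 9. In Mcm7, Rrm2 and Mcm4 it was 3, 2 and 0 of 9.

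Mitosis genes that missed the FDR against LS had positive values as well. Prc1, which bundles microtubules of the central spindle, stood at 1.71 to 4.91 CPM in AL and 1.35 to 1.75 in LS mice, with 8 of 9 AL mice above every LS mouse (0.89 ± 0.35, FDR 0.0695). Nusap1, a spindle protein, stood at 1.25 to 3.24 and 0.978 to 1.68 CPM (0.85 ± 0.35, FDR 0.0828). Hmmr, a spindle assembly factor, had 1.06 ± 0.46 (FDR 0.101), Anln, an actin-binding protein of the cleavage furrow, 0.71 ± 0.37 (FDR 0.167) and Kif20a, a kinesin of the central spindle, 0.41 ± 0.26 (FDR 0.253). Plk1, a kinase of mitotic entry, stood at 0.375 to 1.07 CPM in AL and 0.154 to 0.378 in LS mice.

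In the first batch alone, every AL mouse lay above every LS mouse for 12 members, beside 8.94% of all tested genes, and below for 2, Cenpf and Rrm1, beside 11.6%.

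**Figure D2:**
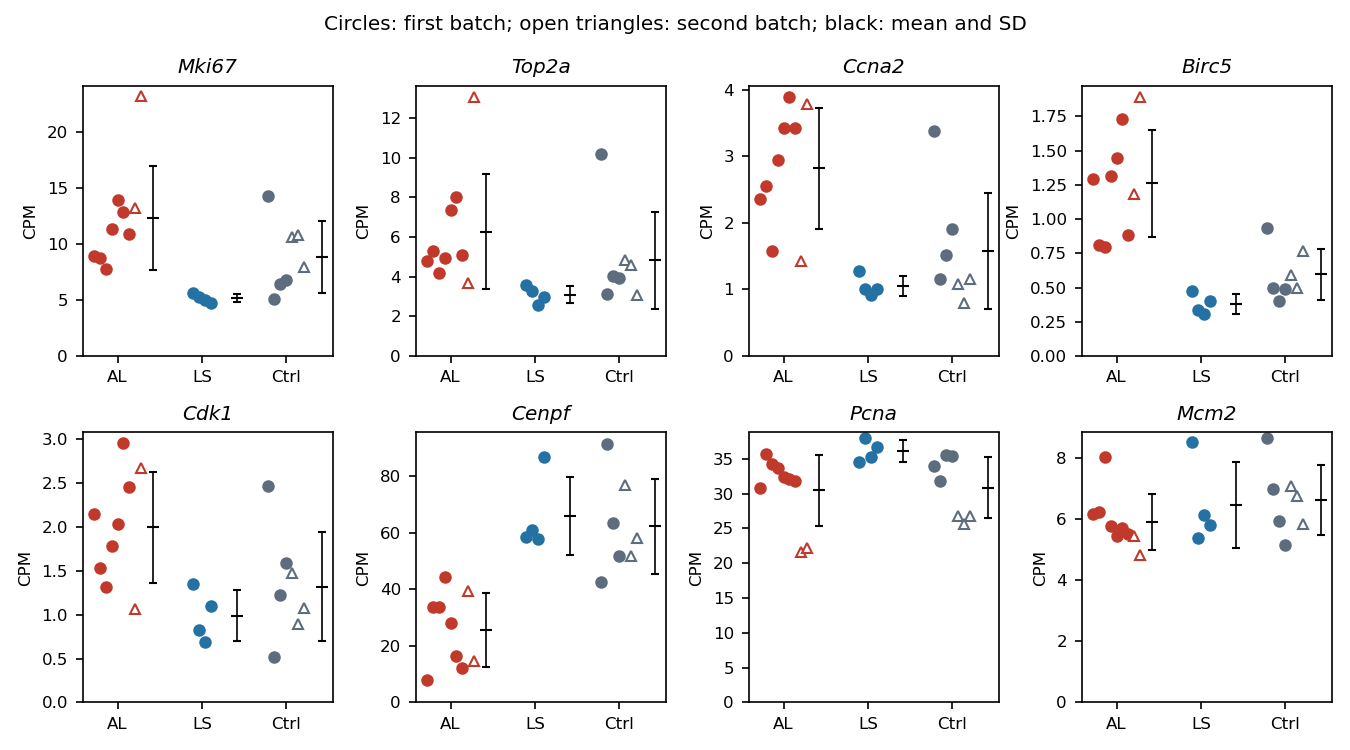
CPM of 8 genes by mouse in AL, LS and Ctrl mice; circles are the first batch, open triangles the second, and black bars the mean and SD of each group. In Mki67, Top2a, Ccna2, Birc5 and Cdk1 the LS mean is the lowest of the groups, and Ctrl1 lies with the AL mice. The lowest mouse is Ctrl6 in Ccna2 and Ctrl2 in Cdk1. Cenpf has its lowest mean in AL mice, and Pcna and Mcm2 overlap between groups.

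Against Ctrl mice, which lack the human light chain, fewer members were called. 3 entries were called higher, beside 4.1% of all tested genes, and 1, Cenpf, lower, beside 3.71%. Birc5 rose by 1.10 ± 0.23 (FDR 0.00257), Ccna2 by 0.76 ± 0.26 (FDR 0.035) and Cdc20 by 0.66 ± 0.24 (FDR 0.0469) on the log2 scale. Ccna2 lost this call in 15 of 32 alternative settings and Cdc20 in 19 of 32. Bub1b lay at the fold threshold with 0.58 ± 0.18 and was not called, and Mki67, at 0.54 ± 0.20 (FDR 0.0471), was below it. Cdk1 had a value of 0.55 ± 0.28 and Top2a of 0.37 ± 0.27, neither past the FDR. The median over 26 mitosis genes was 0.52, over 12 DNA synthesis genes 0.13 and over all tested genes 0.01, and 25 of the 26 mitosis genes had a positive value. Of the G1 genes, Ccnd3 (0.28 ± 0.07, FDR 0.00941) and Ccne2, an E-type cyclin (-0.42 ± 0.14, FDR 0.0368), passed the FDR below the fold threshold. In the first batch, every AL mouse lay above every Ctrl mouse for 0 members, beside 5.68% of all tested genes, and below for 0, beside 8.66%.

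1 control mouse stood among the AL mice. Ctrl1 had 14.3 CPM of Mki67, whereas the other Ctrl mice of the first batch had 5.08, 6.46 and 6.80. It had 10.2 CPM of Top2a against 3.10, 4.04 and 3.91. Ctrl1 was the highest of the 7 Ctrl mice for 23 of 27 mitosis genes and at or above the median of the first-batch AL mice for 25 of 27. The 25 include Cenpf, in which AL mice were lower than controls. The Cenpf level of Ctrl1, 42.4 CPM, was the lowest of the Ctrl mice and above the first-batch AL median of 28.02 CPM. Without Ctrl1, 18 entries were called against Ctrl mice in place of 4, Mki67, Top2a, Cdk1 and Foxm1 among them. The count was 7 without AL3 or AL8 and 2 without AL5, AL6, AL7, AL9, Ctrl2 or Ctrl4. Birc5 and Cenpf were called in each of these fits. The share of all tested genes called was not counted in these fits.

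**Figure D3:**
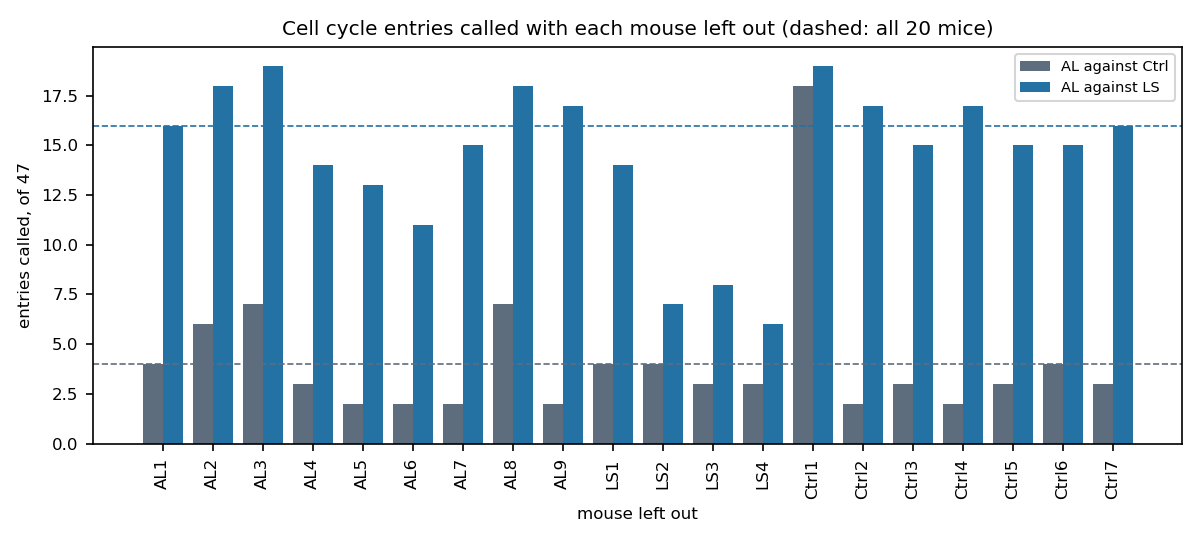
Bars give the number of the 47 entries called with each of the 20 mice left out in turn, for AL against Ctrl and AL against LS; dashed lines mark the counts with all mice, 4 and 16. The bar against Ctrl rises to 18 without Ctrl1, and the bars against LS fall to 6 to 8 without LS2, LS3 or LS4.

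LS against Ctrl mice, which differ in the human light chain, gave 0 called members in edgeR and in DESeq2, beside 0.00691% of all tested genes called higher and 0.0138% lower. Age matching is stated for Ctrl and AL mice only, so age cannot be told apart from the light chain here. At an unadjusted p under 0.05, 1 entry was higher and 4 were lower in LS mice, 5 of 47 in all, beside 5.94% of all tested genes. The median log2 fold change over 26 mitosis genes was -0.45, with 24 of 26 below 0, and over all tested genes 0.00032. The Ctrl side includes Ctrl1. Its median log2 difference from the 11 controls over the 27 mitosis genes was 0.8065, beside -0.0323, -0.017 and 0.0837 in Ctrl2 to Ctrl4. In Ctrl5 to Ctrl7, of the second batch, this median was 0.3799, 0.1708 and -0.0512. In LS1 to LS4 it was 0.0105, -0.1326, -0.2223 and -0.1278. Ccna2 had -0.78 ± 0.33 (FDR 0.808), Racgap1 -0.70 ± 0.29 (FDR 0.798) and Mki67 -0.56 ± 0.26 (FDR 0.818). The 4 LS mice were close together in some genes, with Kif23 at 1.16 to 1.22 CPM and Racgap1 at 1.16 to 1.26.

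Against the 11 control mice merged, where a log2 fold change of at least 1 was required, Birc5 (1.30 ± 0.21, FDR 0.000151) and Ccna2 (1.01 ± 0.25, FDR 0.00356) were called higher, beside 2.74% of all tested genes. Cenpf (-1.32 ± 0.26, FDR 0.000888) was the 1 lower, beside 2.15%. At any fold change, 19 entries passed the FDR as higher, beside 16.5%, and 3 as lower, beside 19.8%. Of the 19, 16 were mitosis genes, 2 acted in G1 and 1, Mcm6, in DNA synthesis. The 3 lower were Cenpf, Rrm1 (-0.21 ± 0.06, FDR 0.013) and Pcna (-0.13 ± 0.04, FDR 0.0183). The count of 3 called entries was 5 without AL4 and 7 without Ctrl1. Birc5 and Cenpf kept their calls in all settings in which they were tested, while Ccna2 lay just past the fold threshold and lost its call in 13 of 32, among them without AL5, AL6, AL7, AL9, Ctrl2, Ctrl6 or any LS mouse and in the first batch alone (0.92).

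**Figure D4:**
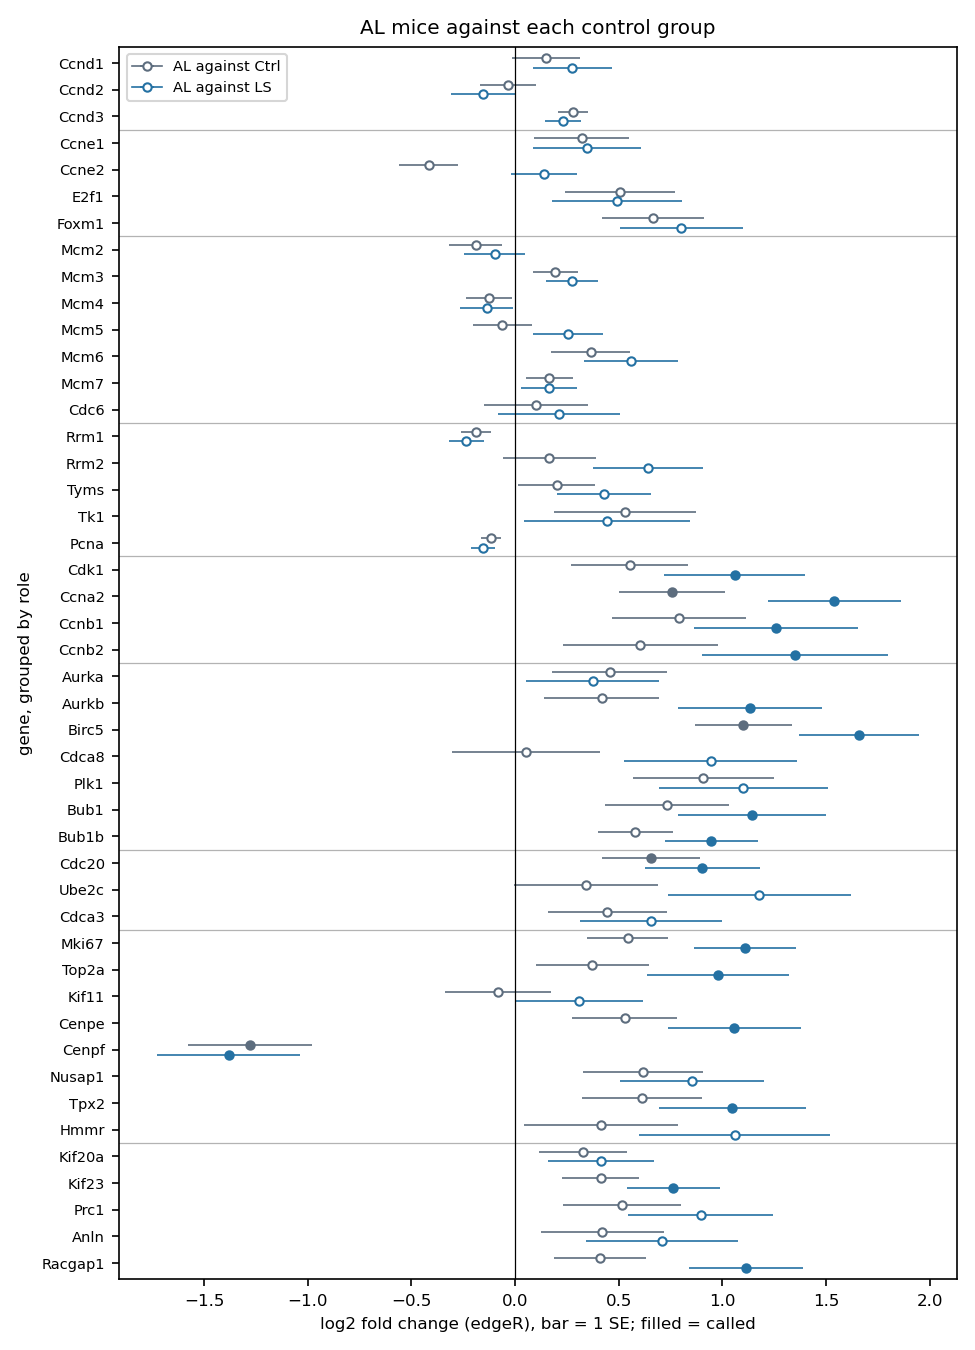
Log2 fold changes of the 46 genes for AL against Ctrl (grey) and AL against LS (blue), with bars of 1 SE and filled points where the gene was called; Kif11 is shown from counts summed over its 2 entries. The mitosis roles lie to the right of 0 except Cenpf, at -1.28 and -1.38, and Kif11 against Ctrl, at -0.08. The replication and D-cyclin rows lie near 0.

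Kif11 could not be read from its 2 entries. AL3 had an estimated count of 87 under one identifier and 0 under the other, AL1 had 0 and 97, and LS1 was the 1 mouse with a value above 0 under both. Summed, Kif11 stood at 2.40 ± 0.922 CPM in AL, 1.83 ± 0.350 in LS and 2.53 ± 1.12 in Ctrl mice, with log2 fold changes of -0.08 ± 0.25 against Ctrl and 0.31 ± 0.31 against LS (FDR 0.842 and 0.484).

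The change from Ctrl to AL was also set side by side in the 2 batches. The median log2 fold change over 26 mitosis genes was 0.33 in the first and 0.95 in the second batch, and 24 of 26 were above 0 in each. A test of the difference between batches passed an FDR of 0.05 for 0 entries in edgeR, beside 1.49% of all tested genes, and for 1 in DESeq2, an entry of Kif11; at an unadjusted p under 0.05 there were 6 of the 45 genes other than Kif11, beside 17.2% of all tested genes. Birc5 had values of 1.02 ± 0.28 and 1.31 ± 0.45, and Cenpf of -1.31 ± 0.36 and -1.21 ± 0.59. Top2a had 0.09 ± 0.32 in the first batch and 1.03 ± 0.48 in the second. Without Ctrl1, 1 of the 4 Ctrl mice of the first batch, the first-batch median over the 26 mitosis genes was 0.73, with 25 of 26 above 0, and Top2a had 0.62 ± 0.29. The second batch held 2 AL mice, of which AL9 was the highest of all 20 mice for 16 of 27 mitosis genes. Without AL8, 2 entries, Cenpe and Tyms, differed between batches.

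**Figure D5:**
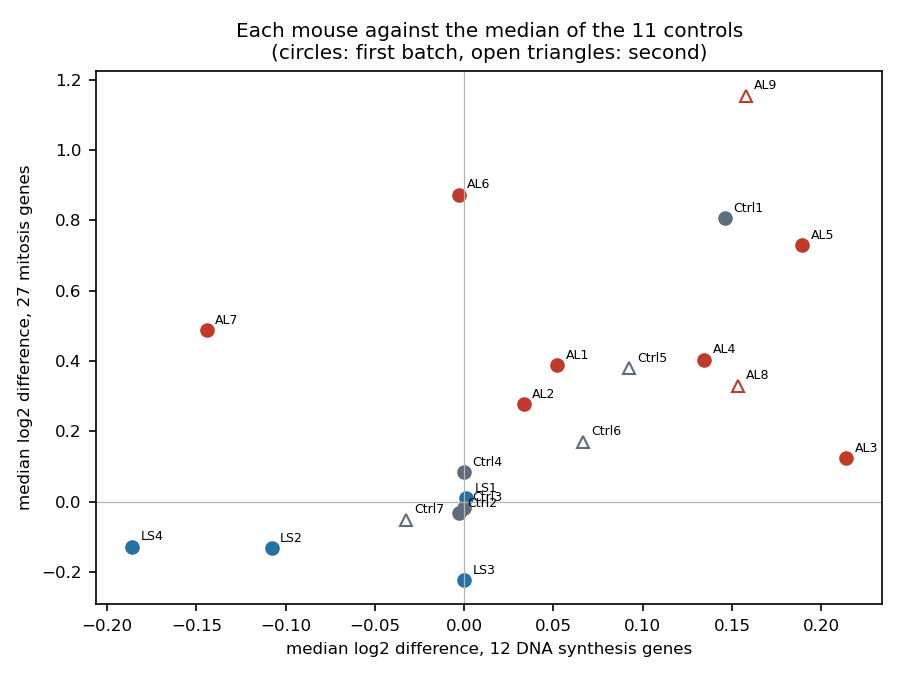
Each point is a mouse, placed by the median log2 difference from the 11 controls over the 12 DNA synthesis genes (x) and the 27 mitosis genes (y). AL mice lie between 0.124 and 1.15 on the vertical axis and Ctrl1 lies at 0.806, while all mice lie within -0.186 and 0.214 on the horizontal axis.

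Markers of some other cells differed between the groups. Summed CPM of the monocyte list (Ly6c2, Ccr2, Plac8 and Chil3) was 6.56 to 15.6 in AL, 2.08 to 3.08 in LS and 3.64 to 10.7 in Ctrl mice, and 3 of 4 were called higher in AL mice against each control group, while Ly6c2 was called lower against Ctrl. The macrophage list was 112 to 496 CPM in AL, 237 to 273 in LS and 152 to 349 in Ctrl mice, with 0 of 10 called. For epicardium and mesothelium (Wt1, Upk3b, Msln and Krt19) the sums were 15.8 to 210 in AL, 6.98 to 21.3 in LS and 12.7 to 30.9 CPM in Ctrl mice, with 3 of 4 called higher. Activated fibroblast markers summed to 99.3 to 906 CPM in AL, 134 to 206 in LS and 86.5 to 214 in Ctrl mice, and of the 4 tested, 2 were called higher against Ctrl and 1 against LS. AL9 had the highest sums of these 4 lists. Of the atrial cardiomyocyte list, Myl4 and Myl7 were tested; both were called higher against Ctrl and Myl4 against LS, and the list summed to 2.02 to 4.91 CPM in AL, 0.799 to 2.56 in LS and 1.06 to 2.997 in Ctrl mice. Cardiomyocyte sums were 48520 to 59540 CPM in the 7 AL mice of the first batch and 64040 to 71430 in LS mice, with 0 of 8 called. Myh6 and Pln passed the FDR below the fold threshold, at -0.33 and -0.44 against Ctrl and -0.46 and -0.47 against LS. Of all tested genes, 5.86% were called higher and 3.03% lower against LS, and 4.1% and 3.71% against Ctrl. In the endothelial (7 genes tested), fibroblast (6), neutrophil (6) and erythroid (6) lists, 0 were called in any comparison. Of 5 pericyte genes, 1 was called lower in AL mice against Ctrl and against LS. Of 7 T cell genes, 1 was called higher against Ctrl and against merged controls. Of 7 B and plasma cell genes, 1 was called lower against Ctrl and against merged controls. The part of these cells in the results was not tested. Liver transcripts, which can mark traces of another tissue, summed to 0.775 to 31.3 CPM in AL, 4.97 to 152 in LS and 0.398 to 266 in Ctrl mice. Of the 6 liver genes, 6 were called lower in AL mice against Ctrl and 5 against LS. In the first batch they summed to 0.979 to 31.3 CPM in AL and 34.3 to 266 in Ctrl mice. In the second batch the sums were 0.775 to 1.42 CPM in AL and 0.398 to 1.08 in Ctrl mice. The source of the liver transcripts was not tested. With their level as a covariate, 12 entries were called against Ctrl. In that fit the share of all tested genes called was not counted.

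Of 125 other cell cycle genes, 121 were tested in 122 entries. Against LS mice, 27 were called higher, beside 5.86% of all tested genes, and 0 lower, beside 3.03%. Of the 27, 17 were among the 50 entries of other mitosis genes. Against Ctrl mice 9 were called higher, beside 4.1%, and 1 lower, beside 3.71%. Against merged controls 7 were called higher, beside 2.74% of all tested genes. At an unadjusted p under 0.05 against LS mice there were 50 of the 122, beside 36.8% of all tested genes. Mybl2, a factor that switches on mitotic genes, rose by 2.55 ± 0.41 against LS (FDR 0.000628) and 0.96 ± 0.30 against Ctrl mice (FDR 0.0234). In LS mice Mybl2 stood at 0.0385 to 0.168 CPM, near the level of 3 counts, so its change against LS rests on few reads. Hells, a chromatin remodeller, rose by 1.32 ± 0.21 and 0.64 ± 0.18, and Uhrf1, which keeps DNA methylation through replication, by 0.86 ± 0.18 against LS. The kinesins Kif22 and Kif2c rose by 1.49 ± 0.36 and 1.70 ± 0.41 against LS and by 1.11 ± 0.30 and 1.04 ± 0.32 against Ctrl. Neil3, a DNA glycosylase, rose by 1.36 ± 0.31 against Ctrl (FDR 0.00377) and 1.15 ± 0.35 against LS mice. In Ctrl5 to Ctrl7, Neil3 stood at 0.0984 to 0.231 CPM and Kif2c at 0.154 to 0.299, which are levels of about 3 counts or fewer. Troap rose by 1.36 ± 0.44 against LS, and Cks2, Aspm and Mcm10 by 1.25 ± 0.30, 1.07 ± 0.26 and 1.17 ± 0.30, all against LS. Aspm, Mcm10 and Uhrf1 were not called against Ctrl mice. Mean levels of Aspm were 1.46 CPM in AL, 0.674 in LS and 1.40 in Ctrl mice. For Mcm10 they were 0.554, 0.205 and 0.548 CPM. Troap was called higher against Ctrl and lost this call in 18 of 32 alternative settings. Troap was also near the level of 3 counts in LS mice, at 0.0578 to 0.143 CPM.

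Pole, the leading strand polymerase, was the 1 gene called lower against Ctrl mice (-0.69 ± 0.17, FDR 0.006). Cdkn2a, which encodes the inhibitor p16 and the ARF protein, was called against LS (1.90 ± 0.58, FDR 0.0245) and merged controls (1.504 ± 0.42, FDR 0.00875), at 0.231 ± 0.0695 CPM in AL (n = 9), 0.0669 ± 0.0665 in LS and 0.0913 ± 0.0785 in Ctrl mice, near the level of 3 counts. Cdkn1a, which encodes the inhibitor p21, was 13.4 to 89.0 CPM in AL and 7.84 to 67.8 in Ctrl mice and was not called (0.45 ± 0.37, FDR 0.38). In the first batch its mean was 45.3 CPM in AL, 45.8 in LS and 47.3 in Ctrl mice. In the second batch it was 39.0 CPM in AL (n = 2) and 11.9 in Ctrl mice (n = 3). None of the 8 RB family and DREAM genes was called in any comparison.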

How the data were processed

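The authors extracted RNA from the heart apex of 20 mice, prepared stranded polyA libraries and sequenced them in 2 runs. Per the methods of the study and the labels, reads were aligned with STAR to GRCm38 and quantified with Salmon, and the authors deposited 1 table of estimated counts per gene, not normalised; 14.2% of its values were not whole and all were rounded here. Ensembl annotation of a later release is named, and the build of that release differs from GRCm38, so coordinates here come from GENCODE M21 and RefSeq on GRCm38.

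Entries with low counts were removed (filterByExpr, minimum count 10, leaving 14477). Groups were tested with edgeR 4.0.16 in R 4.3.3 (TMM, quasi-likelihood test, two-sided, Benjamini-Hochberg FDR over all tested genes), with group and batch in the model and all 20 mice fitted together; SE is the log2 fold change over the square root of F. The threshold on log2 fold change was 0.58, and 1 against merged controls. Where edgeR's Poisson bound applies (Cdc6), the p-value is larger than that ratio gives. Replicates are single mice, and p-values measure the spread between them. Levels for mouse medians used log2(CPM + 0.5). The scripts were tested on simulated data. DESeq2 1.42.0 and ComBat-seq (sva 3.50.0) served as alternatives. Estimated counts of the second batch were 3 or fewer for some members, and floors cover counting error only.

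Members and gene lists were chosen with earlier results of these data known. Values are given for members called in any of the 4 comparisons, limited to the 15 of lowest FDR against merged controls, always for Mki67, Top2a, Cdk1, Ccnd1, Ccnd2, Ccnd3, Pcna and Mcm2, and for the 12 other cell cycle genes called at the lowest FDR, with Cdkn1a; other members that are named were chosen after their values were seen.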

Additional observations from a re-analysis of the deposited data

Results flagged for a closer look

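In a group of 4 to 9 mice, a value far from the others was found in 13 of 138 groups of members, where chance gives about 1 in 20. AL9 stood high for Foxm1 (4.73 CPM), Tyms (3.18), Aurkb (1.89), Cdca3 (1.89) and Anln (7.06). Ctrl1 stood high for Top2a (10.2 CPM) and Bub1 (0.913). AL3 stood high for Mcm2 (8.05 CPM), LS1 for Rrm1 (19.96) and LS4 for Cenpf (86.6). AL7 stood low for E2f1 (0.598 CPM), AL8 for Rrm2 (2.02, in the second batch) and Ctrl6 for Tyms (0.697). Only AL9 and Ctrl1 carried more than 1 of these 13 values.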

How the results depend on the processing

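The calls of Birc5 and Cenpf held their side of the threshold in AL mice against Ctrl, against LS and against merged controls in all alternatives run in which they were tested, with log2 fold changes from 0.885 to 1.92 for Birc5 and from -1.60 to -1.11 for Cenpf. The 4 members called against Ctrl became 2 with at least 10 counts in every mouse, in the first batch alone, with Xist as a covariate or with the replicate block, 7 in DESeq2, 8 with no threshold on fold change, and 2 to 18 with 1 mouse left out. The 16 against LS became 9 with at least 10 counts in every mouse, 5 with ComBat-seq, 10 with the replicate block and 6 to 19 with 1 mouse left out. Against merged controls the 3 became 1 with at least 10 counts in every mouse, 5 against the mean of LS and Ctrl, 22 with no threshold on fold change and 2 to 7 with 1 mouse left out, and the 7 other cell cycle genes became 0, 7, 41 and 7 to 15, and 4 with the replicate block. The strict filter tested 23 of the 47 entries. Except with no threshold on fold change against merged controls, the share of all tested genes called was not counted in these alternatives. A shift of the members alone cannot be told apart there from a shift over all genes. LS against Ctrl stayed at 0 in all 34 alternatives. Between batches the count of 0 became 1 in DESeq2 and 0 to 2 with 1 mouse left out. In settings chosen after seeing the data, leaving out AL9 and Ctrl1 gave 12 members against Ctrl, 7 against merged controls and 12 other genes, and liver markers as a covariate gave 12, 18 and 25. Without Ctrl1, also chosen so, the first-batch median over 26 mitosis genes was 0.73 in place of 0.33. With the replicate block, Ccna2 was at 0.68 against merged controls and lost its call. The cause of these shifts was not tested. Over the named genes, 7470 values kept their side of the threshold, 180 fell short of a threshold, 132 passed one and 0 reversed. A reversal was counted only where the main fit or the alternative called the gene. Values called in neither could change sign and still count as kept. Against Ctrl, Hmmr ran from -0.393 to 1.003 and Ube2c from -0.36 to 0.97 over the alternatives. Mice with the same replicate number share only a number: their deviations correlated at -0.228 to 0.293 over 15 pairs, 4 of them over 0.1. The second batch has the shallower libraries and no LS mouse, which limits what it shows of rare transcripts.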
